A study of Mus musculus with 2 samples.

Results

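Immune-cell and inflammation microRNAs (miRNAs) were followed as 8 genes of the 2202 annotated miRNA genes in the count tables. They were picked by gene symbol: 3 that mark blood and immune lineages (Mir142, Mir150 and Mir223) and 5 that immune or injury signals are known to induce (Mir146, Mir146b, Mir155, Mir21a and Mir22). The rule sets no threshold on a measured value, but it was made with earlier results of these data known. The tissue was left cerebral cortex of adult B6CASTF1/J mice, the F1 cross of C57BL/6J with CAST/EiJ, aged 18 to 20 months. Small RNA below 30 nt was sequenced in 2 libraries, which the labels number as biological replicates 1 and 2 of 1 group, with no treatment named. Both libraries point to a single donor record and nothing says that they came from separate animals, so their spread may be technical in part. The labels conflict on sex, with male in a field and female in free text, so sex is not known here and was not used. There is no young, treated or inflamed cortex here, so each level below is that of aged cortex alone.

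miRNAs are cut from hairpin precursors and pair with messenger RNAs mainly through the seed near their 5′ end, which lowers translation and message stability. miR-142 is made in all blood lineages and in microglia, the resident macrophages of brain. miR-150 is known from mature lymphocytes, where it restrains the transcription factor Myb, and miR-223 belongs to neutrophils and monocytes. miR-146a is switched on by NF-κB and dampens that pathway through Traf6 and Irak1, while miR-155, made from Mir155hg in activated lymphocytes and macrophages, lowers Socs1. miR-21a rises in injury and inflammation and targets Pdcd4. miR-22 is broadly expressed, in neurons and muscle as well as in immune cells, so its presence in cortex does not mark an immune cell. In a bulk sample, fewer cells of a type and less RNA per cell cannot be told apart.

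The mature sequences below, from RefSeq on GRCm38.p6, show which members could act on the same messages and which reads could be mistaken for one another. Bases 2 to 8, the seed, are in capitals. All 8 members matched the RefSeq table by symbol, and the 7 hairpins it lists have the same coordinates as in GENCODE M21. Each count in the tables is for a whole hairpin, so the 5p and 3p strands were not counted apart. For Mir150 the strand shown is miR-150-3p, while miR-150-5p is the strand known to act on Myb.
miR-142a-5p: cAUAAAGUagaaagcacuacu
miR-142a-3p: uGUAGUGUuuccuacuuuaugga
miR-150-3p: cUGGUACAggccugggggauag
miR-223-3p: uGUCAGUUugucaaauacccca
miR-146a-5p: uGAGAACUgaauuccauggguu
miR-146b-5p: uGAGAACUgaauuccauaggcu
miR-155-5p: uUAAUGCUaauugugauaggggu
miR-21a-5p: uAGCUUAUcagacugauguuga
miR-22-3p: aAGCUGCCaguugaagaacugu

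Only miR-146a-5p, made from Mir146, and miR-146b-5p, made from Mir146b, share a seed among the sequences shown. They have 20 of 22 bases in common, and counted from the 5′ end of miR-146a-5p they differ by G18A and U21C. Their hairpins were also the only members to share a run of 20 bases with a gene elsewhere in the annotated transcripts, in each case the other one of the pair. A read cut short before position 18 would fit both, and a read that maps to more than 1 place is kept on a summary line, under no gene. The levels of Mir146 and Mir146b are uncertain to that extent. Among 1679 mature names in the RefSeq table, the seed of miR-21a-5p recurred in miR-21c, and the seeds of the 5p and 3p strands of miR-142a, of miR-223-3p, of miR-155-5p and of miR-22-3p in no other.

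The relatives of miR-21a and the partner of miR-142a are set out for the same reason.
miR-21b: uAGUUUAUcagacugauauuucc
miR-21c: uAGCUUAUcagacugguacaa
miR-142b: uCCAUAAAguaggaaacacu
miR-21c has the seed of miR-21a-5p but differs from it at 5 of the 21 positions compared, the first of them A16G. miR-21b differs at 4 of 22 positions, of which C4U lies in the seed. Mir21b (chromosome 3) and Mir21c (chromosome 8) had no read in either library, which allows up to 1.26 CPM in replicate 1 and 0.676 CPM in replicate 2 (3 reads each). CPM are reads scaled to 1000000 sense reads at miRNA genes in the library. The locus of miR-142b lies on the strand opposite to Mir142, and its sequence is the exact reverse complement of bases 4 to 23 of miR-142a-3p. It also matches miR-142a-5p at 16 of 18 overlapping bases, so the strand of a read carries much of its identity at this locus.

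In the annotation (mm10, GENCODE M21), 4 of the 8 members lie on chromosome 11, which holds 137 of the 2202 miRNA genes, or 6.22%. Mir146 (ENSMUSG00000065601.1) lies at chromosome 11, 43374397 to 43374461, minus strand, between genes, the nearest being Gm12148 at 11021 bp. Mir22 (ENSMUSG00000065529.1) spans 75463716 to 75463810 of the same chromosome, plus strand, within exons of its noncoding host Mir22hg and of a Tlcd2 transcript. Mir21a (ENSMUSG00000065455.1) lies at 86584067 to 86584158, minus strand, in the 3′ untranslated region of Vmp1, an autophagy gene. Mir142 (ENSMUSG00000105196.1) spans 87756864 to 87756927, plus strand, inside an intron of Mir142hg, a noncoding host, with Mir142b across from it at 87756841 to 87756955.

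The other members lie on separate chromosomes. Mir150 (ENSMUSG00000065495.1) is at chromosome 7, 45121757 to 45121821, plus strand, between genes, 96 bp from the antisense gene Gm45552. Mir155 (ENSMUSG00000065397.1) is at chromosome 16, 84714140 to 84714204, plus strand, within an exon of Mir155hg. Mir146b (ENSMUSG00000070127.2) is at chromosome 19, 46342762 to 46342870, plus strand, inside an intron of the protein-coding Mfsd13a. Mir223 (ENSMUSG00000076066.1) is at chromosome X, 96242817 to 96242926, plus strand, within an exon of F630028O10Rik, a noncoding gene. Thus 4 members sit in exons of longer transcripts, 2 in introns and 2 between genes.

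Replicate 1 held 2381663 sense miRNA reads and replicate 2 held 4436398, and multimapping reads, which no gene received, made up 35.6% and 44.8% of all reads. Unmapped reads made up 30.8% of replicate 1 and 14.6% of replicate 2, and sense miRNA reads 29.6% and 36.2%. The lists of neuron and oligodendrocyte miRNAs summed to 40522 ± 8214 and 4093 ± 836 CPM (SD, n = 2), and the liver miRNA Mir122 and the muscle list to 67.2 ± 12.4 and 18.9 ± 2.33 CPM. Of the 7 muscle loci, 4 had no read in either library, and Mir206 alone held a mean of 16.6 CPM. Of the neuronal loci, the 3 Mir124a copies stayed at 0 to 4 reads per library. A read that fits more than 1 copy would be among the multimapping reads, so these counts do not show how much miR-124 was present. The list sums likewise hold only reads given to 1 gene. All 8 members had at least 10 reads over both libraries, and 7 had at least 10 in each, Mir146b having 9 in replicate 2.

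The members spanned a wide range, from a mean of 9333 CPM for Mir22 to 5.21 CPM for Mir146b. Ranked by mean CPM among all miRNA genes, Mir22 stood at 23, Mir21a at 54, Mir150 at 71 and Mir146 at 109. Mir142 ranked 202, Mir155 236, Mir223 292 and Mir146b 354, among 728 genes with any read. Ranges over the libraries overlapped for 1 pair of neighbours in this order, Mir21a and Mir150, so that order is not set. For the other neighbours the lowest library of the higher gene lay above the highest library of the lower one. A miRNA read covers about 1 whole mature strand, so CPM were not divided by length. Dividing by hairpin length left the order of the 8 means as it was.

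**Figure D1:**
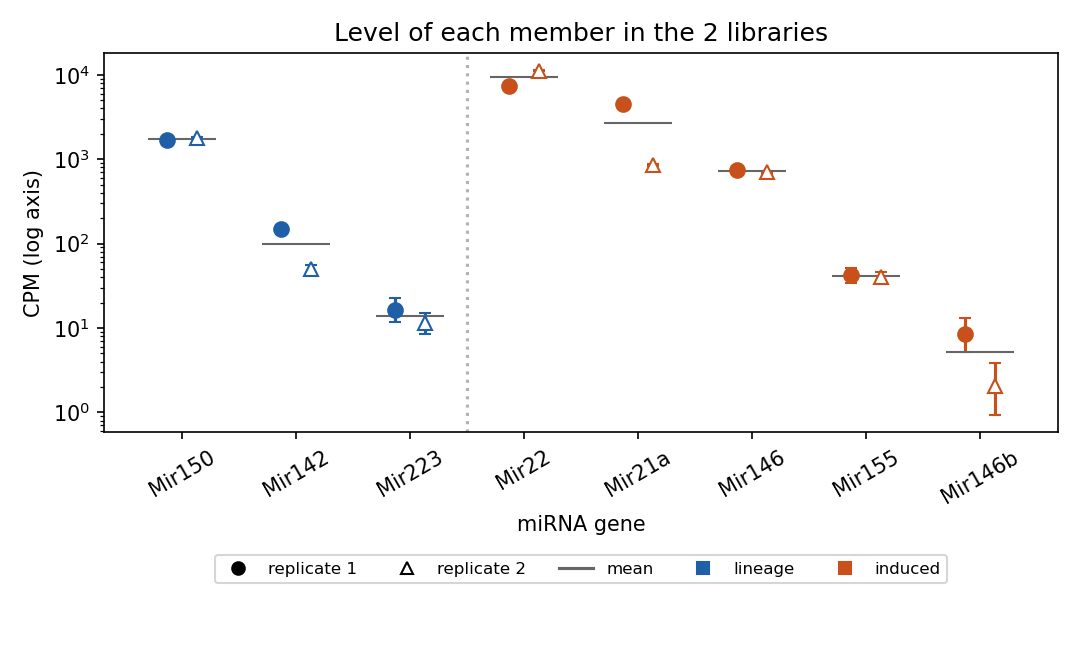
CPM on a log axis for each member in replicate 1 (filled circles) and replicate 2 (open triangles), with exact 95% Poisson intervals of the counts as bars and the mean as a line. Mir150, Mir146 and Mir155 have nearly the same level in both libraries, while Mir21a, Mir142 and Mir146b stand higher in replicate 1.

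Among the lineage members, Mir150 held nearly all reads. Whether those reads came from lymphocytes or from other cells of the cortex was not tested. Mir150 had 4052 reads in replicate 1 and 7849 in replicate 2, or 1701 CPM (95% exact Poisson interval 1649 to 1755) and 1769 CPM (1730 to 1809). The mean was 1735 ± 48.0 CPM (SD, n = 2), and the intervals of the libraries overlap. These intervals, here and below, cover counting error only, because PCR copies without molecular identifiers are not independent molecules.

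Mir142, of all blood lineages and microglia, had 357 and 219 reads, or 149.9 CPM (135 to 166) and 49.4 CPM (43.0 to 56.4). The libraries lie apart, with replicate 1 higher, and the mean of 99.6 ± 71.1 CPM has a spread close to its own size. Mir223, of neutrophils and monocytes, had 39 and 51 reads, or 16.4 CPM (11.6 to 22.4) and 11.5 CPM (8.56 to 15.1), with intervals that overlap. Mir150 thus stood 11.4 times above Mir142 in replicate 1 (95% exact interval of the read ratio 10.2 to 12.7) and 35.8 times in replicate 2 (31.3 to 41.2). The factor between Mir142 and Mir223 moved the other way, at 9.15 (6.57 to 13.1) and 4.29 (3.15 to 5.94). The lineage miRNAs were thus not in a fixed proportion to one another in the 2 libraries.

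Among the induced members, Mir22 and Mir21a carried most reads and moved in opposite directions. Mir22 had 17734 and 49777 reads, or 7446 CPM (7337 to 7556) in replicate 1 and 11220 CPM (11122 to 11319) in replicate 2. Mir21a had 10598 and 3768 reads, or 4450 CPM (4366 to 4535) and 849 CPM (822 to 877). Mir22 was the higher of the pair in both libraries, but by 1.67 times (1.63 to 1.71) in replicate 1 and 13.2 times (12.8 to 13.7) in replicate 2. Their sum hardly differed, at 11896 and 12070 CPM (11983 ± 123, SD, n = 2), while the SD was 2669 CPM for Mir22 alone and 2546 CPM for Mir21a alone. This near-equal sum of 2 genes was seen in 2 libraries only and has no test.

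The other induced members differed little between the libraries, apart from the sparse Mir146b. Mir146, the locus of miR-146a, had 1785 and 3136 reads, or 749 CPM (715 to 785) and 707 CPM (682 to 732), with a mean of 728 ± 30.1. Mir155, the miRNA of activated lymphocytes and macrophages, had 100 and 176 reads, or 41.99 CPM (34.2 to 51.1) and 39.7 CPM (34.0 to 45.99). Both pairs of intervals overlap.

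Mir146b had 20 and 9 reads, or 8.40 CPM (5.13 to 12.97) and 2.03 CPM (0.928 to 3.85). Those intervals do not overlap, though they rest on few reads. Mir146 exceeded Mir146b 89.3 times in replicate 1 (57.6 to 146.5) and 348 times in replicate 2 (183 to 763), so of the 2 loci that share the seed GAGAACU, Mir146 supplied nearly every read assigned to one of them.

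The 2 classes were set side by side by their summed level. The induced members summed to 12696 CPM in replicate 1 and 12818 in replicate 2, a mean of 12757 ± 86.5 CPM (SD, n = 2). The lineage members summed to 1868 and 1830 CPM, a mean of 1849 ± 26.5. The induced sum was 6.80 times the lineage sum in replicate 1 and 7.004 times in replicate 2, and the ranges of the sums do not overlap. Genes of a class are not replicates, so this is a description of the loci and not a test of 2 kinds of miRNA.

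That order rested on Mir22 and Mir21a. Without them, the remaining 3 induced members (Mir146, Mir146b and Mir155) summed to 800 and 749 CPM, which is 0.428 and 0.409 times the lineage sum. The lineage sum in turn rested on Mir150: Mir142 and Mir223 alone summed to 166 and 60.9 CPM, and the same 3 induced members stood 4.81 and 12.3 times above that. Without Mir22 alone, the induced sum was 2.81 times the lineage sum in replicate 1 and 0.873 times in replicate 2, so the order of the classes turned between libraries. Without Mir21a alone it was 4.42 and 6.54 times. The share of sense miRNA reads that fell on any of the 8 members was 1.456% for replicate 1 (1.441 to 1.472, exact binomial, 95%) and 1.465% for replicate 2 (1.454 to 1.476).

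**Figure D2:**
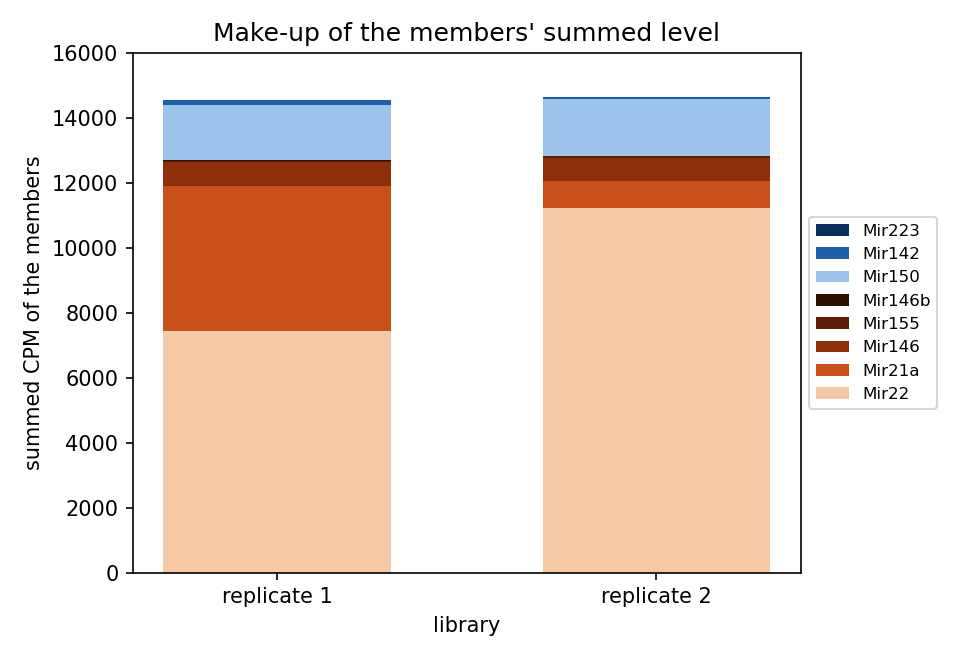
Summed CPM of the members in each library, stacked by gene, with induced genes in orange to brown and lineage genes in blue. The columns end at 14563 and 14648 CPM, but Mir21a fills 30.6% of the first and 5.80% of the second, and Mir22 fills 51.1% and 76.6%.

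The libraries were then compared gene by gene, to see which members differed by more than counting noise. A two-sided exact binomial test, adjusted by Benjamini-Hochberg across the 472 genes that reached 10 reads over both libraries, called 5 of the 8 members (adjusted p under 0.05). Across all 472 genes it called 52.1%, so a call is common in these libraries, and 5 of 8 is not far from that share. Of the called members, 4 were higher in replicate 1, where 24.6% of all genes were, and 1 was higher in replicate 2, where 27.5% were. By class, 1 of the 3 lineage members and 4 of the 5 induced members were called. The test takes no account of spread between samples and compares these libraries, not conditions.

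Mir21a had the widest gap of the members. Its log2 ratio of replicate 1 over replicate 2 was 2.42 ± 0.03 (counting SE), a 5.34-fold difference (95% exact interval 5.15 to 5.54), with an adjusted p of the exact binomial test below 1e-300. It ranked ninth by size (rank 9 of 472), and first (rank 1) among the 95 genes with a mean of 1000 CPM or more, a cutoff chosen after the values were seen. Mir142 was 3.10-fold higher in replicate 1 (2.61 to 3.68; log2 ratio 1.63 ± 0.12; adjusted p of the exact binomial test 3.0e-40). Mir146b was 4.22-fold higher there (1.84 to 10.5; log2 ratio 2.08 ± 0.58; adjusted p of the exact binomial test 5.7e-04).

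Mir22 was the only member called lower in replicate 1, at a ratio of 0.676 (0.665 to 0.688; log2 ratio -0.56 ± 0.01), with an adjusted p of the exact binomial test below 1e-300. Mir146 passed at a ratio of only 1.08 (1.02 to 1.15; adjusted p of the exact binomial test 0.019). That call is lost when library totals are used for scaling in place of TMM size factors (adjusted p of the exact binomial test 0.092).

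Mir150, Mir223 and Mir155 did not pass the exact binomial test. Mir150 had a ratio of 0.980 (0.944 to 1.02; adjusted p of the exact binomial test 0.42), with a log2 ratio of -0.03 that becomes 0.05 with RLE size factors. Mir155 had a ratio of 1.08 (0.835 to 1.39; adjusted p of the exact binomial test 0.69) and Mir223 one of 1.45 (0.932 to 2.25; adjusted p of the exact binomial test 0.16). For Mir223 the interval reaches to more than a doubling, so these depths do not settle whether it differed.

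The members' ratios were also set beside those of all genes, with no test of the difference. The median size of the log2 ratio was 0.55 over the 8 members and 0.47 over the 472 genes. A log2 ratio of at least 1 in size was seen for 3 members (Mir21a, Mir146b and Mir142) and for 94 of the 472 genes (19.9%). When the spread between the libraries was allowed for, by the exact test of edgeR at 1 dispersion common to all genes (biological coefficient of variation 0.351), 0 of 8 members and 2 of 472 genes (0.424%) were called. Adjusted p in that test was 0.19 for Mir21a and 0.80 for both Mir142 and Mir146b. At an unadjusted p under 0.05, edgeR's exact test had 3 of 8 members, the same 3, and 28 of the 472 genes (5.93%). The dispersion comes from these same libraries, so the test holds no replicate evidence for a gene.

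**Figure D3:**
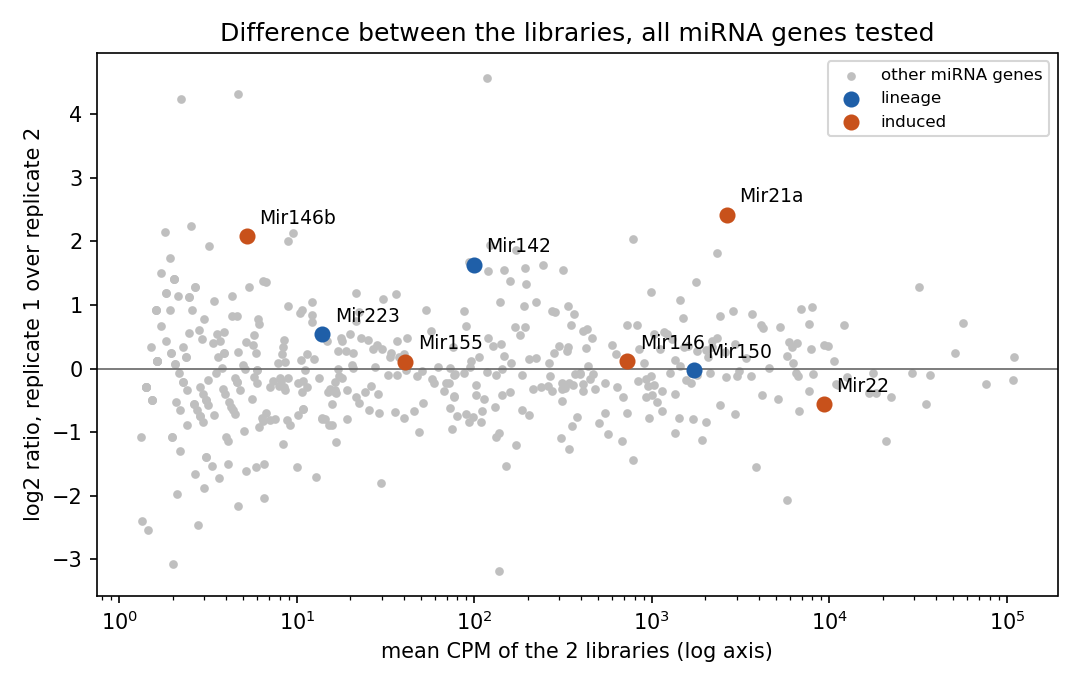
Log2 ratio of replicate 1 over replicate 2 (TMM-scaled counts) against mean CPM on a log axis, for 471 of the 472 genes tested (1 gene with no read in a library is not drawn). Mir21a at 2.42 lies above every other gene of 1000 CPM or more, while Mir150, Mir146 and Mir155 lie close to 0.

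Lists of blood, vessel and brain miRNAs give levels to set beside the members. Over all genes, 24.6% were called higher in replicate 1 and 27.5% in replicate 2. The erythroid list (Mir451a, Mir451b, Mir486 and Mir144) summed to 97.8 CPM in replicate 1 and 67.4 CPM in replicate 2, with Mir451b at 0 in both. Of its 3 tested loci, 1 was called (52.1% over all genes), Mir451a, at 49.97 and 22.5 CPM. Mir486 stood at 27.3 and 27.5 CPM and Mir144 at 20.6 and 17.4 CPM. Replicate 1, with the higher Mir142, thus also had the higher Mir451a. Mir144 and the member Mir223 (16.4 and 11.5 CPM) leaned the same way without a call, while Mir486 and Mir150 were close to level. The part of residual blood in Mir142 was not tested.

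The mural list, of vessel smooth muscle and pericytes, summed to 10856 and 5719 CPM. Both of its tested loci were called higher in replicate 1 (24.6% over all genes). The neuron list of 12 loci ran the other way, at 34714 and 46330 CPM. Of its 9 tested loci, 6 were called (52.1% over all genes), each of the 6 higher in replicate 2 (27.5% over all genes). The list does not hold every miRNA made in neurons, so this is the direction of the listed loci only. Mir132, placed on the immune list below, was higher in replicate 1, at 69646 and 43349 CPM. Endothelial Mir126a was called higher in replicate 2 though close to level, at 17007 and 18138 CPM. Mir126b overlaps it on the other strand and had 0 sense reads. Its opposite-strand reads, 40505 and 80469, nearly equal the sense reads of Mir126a, so its 0 is no separate endothelial level. The oligodendrocyte list was split, though its sum was higher in replicate 1, at 4684 and 3502 CPM. Mir338 was called higher there, at 3079 and 1778 CPM. Mir219a-2 was called higher in replicate 2, at 1600 and 1718 CPM, and Mir219a-1 was not called. The liver miRNA Mir122 was called higher in replicate 2, at 58.4 and 75.96 CPM. With 2 libraries, any gene higher in replicate 1 runs the way of Mir21a and any gene lower there the way of Mir22. What the cell make-up of the pieces of tissue, or the unlike share of unmapped reads, had to do with Mir21a or Mir22 was not tested.

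Other miRNAs with roles in immune cells, 17 loci in all, were looked up as context. Of 16 with enough reads, 12 were called by the exact binomial test (52.1% over all genes), 8 higher in replicate 1 (24.6% over all genes) and 4 in replicate 2 (27.5%). Their summed level was 99634 and 68665 CPM, and their median log2 ratio was -0.02. Mir132 alone held 69646 and 43349 CPM of these sums, so they mostly give the level of that 1 locus. A role in immune cells does not make a locus specific to them, so the list gives no level of immune cells. Which cells of the cortex held these reads was not tested. Mir511, in the macrophage receptor gene Mrc1, had 6 reads in replicate 1 and 1 in replicate 2, and Mir147, induced through Toll-like receptors, had 3 and 12. Mir342, in the gene Evl and found in both lymphocytes and brain, stood at 2475 and 2766 CPM, above Mir150 in both libraries. Mir222 stood at 3610 and 1043 CPM and its cluster partner Mir221 at 9053 and 4826 CPM, both higher in replicate 1 like Mir21a.

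For each member, the gene with the most similar pair of levels was found by distance in log2(CPM + 1) over the 2 libraries. Mir222 was nearest to Mir21a, at a distance of 0.42. Mir330, a neuronal miRNA at 7688 and 11152 CPM, was nearest to Mir22, at 0.05. Mir374b was nearest to Mir142 (0.15), Mir185 to Mir150 (0.09), Mir5099 to Mir223 (0.13), Mir532 to Mir146 (0.04), Mir148a to Mir155 (0.05) and Mir3474 to Mir146b (0.48). No member was nearest to another member. With 2 libraries a short distance says little more than that 2 levels and 1 ratio are alike.

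**Figure D4:**
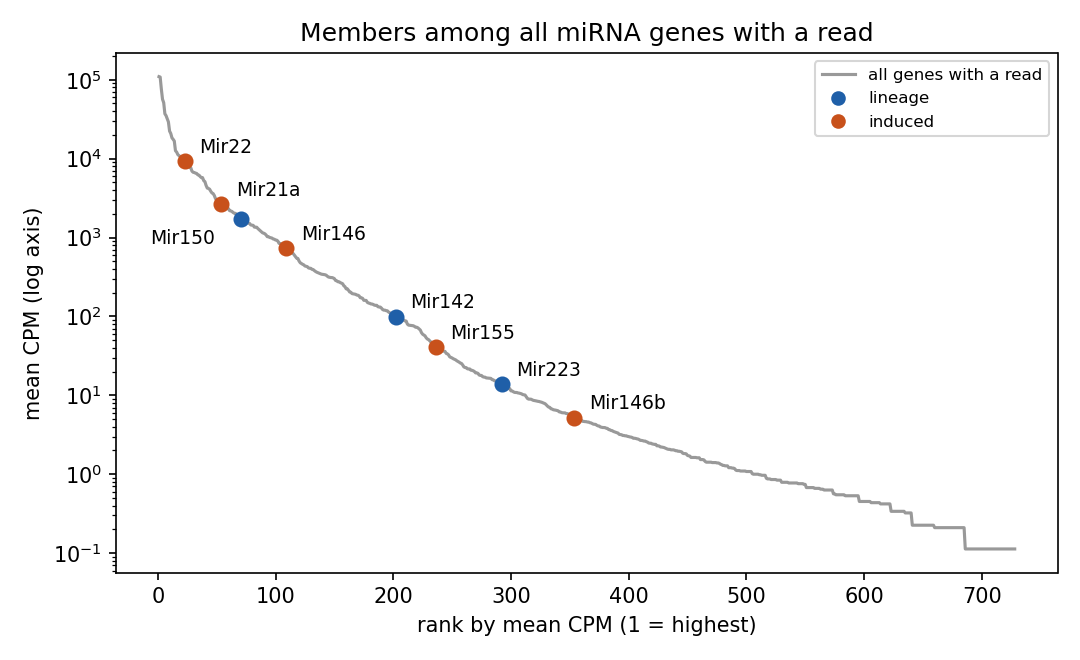
Mean CPM on a log axis against rank for the 728 miRNA genes with a read (line), with lineage members in blue and induced members in orange. The classes interleave along the curve: Mir22 and Mir21a stand above Mir150, and Mir223 stands between Mir155 and Mir146b.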

How the data were processed

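The authors deposited 1 table of raw read counts per miRNA gene for each library. Genome build (mm10) and annotation (GENCODE M21) are as in the notes deposited with the tables. For aligner, settings and trimming, nothing is given in the sources used here. Counts on the gene's own strand were used. Which column holds them was inferred from the values, since no source names the counter: the other stranded column is nearly empty at the members. The 4 summary lines were kept out of totals. CPM used the sense miRNA total of each library (2381663 and 4436398), and 1 read is worth 0.42 and 0.225 CPM. TMM (factors 0.990 and 1.01, over 472 genes) and RLE came from edgeR 4.0.16 in R 4.3.3. The exact binomial test, Poisson and Clopper-Pearson intervals (95%) came from scipy 1.17.1 in Python 3.11.15. On simulated data of 472 genes with counting noise only, this test called 3.31% of 272 unchanged genes and 74% of 50 genes changed 2-fold. Words of 20 bases were searched on both strands of GENCODE transcripts, leaving out genes over the hairpin itself.

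The members, lists and tests were chosen with earlier results of these data known. Named are the members, the gene nearest to each over both libraries, relatives and opposite-strand partners, and the context lists. Mir486b, of the erythroid list, matched no symbol. Alternatives covered scaling, strand column, read minimums, hairpin length, a pseudocount of 1 CPM, edgeR's exact test and each library alone.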

Additional observations from a re-analysis of the deposited data

Results flagged for a closer look

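The opposite-strand column, which the comparisons do not use, held reads at Mir142b, above the 3 reads that a count of 0 allows. There were 357 in replicate 1 and 219 in replicate 2. These numbers equal the sense counts of Mir142, while Mir142b had 0 sense reads, so the same reads appear under both genes in different columns. Opposite-strand reads at the members themselves numbered 0 in replicate 1 and 2 in replicate 2, the latter at Mir150.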

How the results depend on the processing

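No paired analysis was possible because there is 1 group. The lineage sum kept within 1 SD of 1849 CPM with TMM or RLE scaling and lay between 1830 and 1868 CPM without either replicate. It moved to 608 CPM when scaled to all reads of the library, 1912 with both strands together and 2274 when scaled by hairpin length. The induced sum (12757 CPM, 12696 to 12818 without either replicate) moved to 4203, 13939 and 11132 CPM under the same settings. How close the libraries lay also depended on the scaling. With RLE the SD between them rose from 26.5 to 120 CPM for the lineage sum and from 86.5 to 555 CPM for the induced sum. Scaled to all reads, the SD was 78.0 and 627 CPM, and with TMM 51.6 and 86.4 CPM. Mir142 fell to 0 with both strands together, since its reads overlap Mir142b. The count of 5 called members stayed at 4 or 5 except for 0 with edgeR's exact test, which allows for spread between the libraries. With that test the calls of Mir142, Mir146, Mir146b, Mir21a and Mir22 were lost. Its dispersion was set by the same libraries that it compares, so this loss is no separate evidence on a gene. Mir146 also lost its call with library totals and with TMM over genes with at least 1 read (adjusted p of the exact binomial test 0.85), an alternative chosen after seeing the data. Under that same alternative Mir150 was called, at a log2 ratio of -0.13 (adjusted p of the exact binomial test 1.1e-05), while its log2 ratio reversed to 0.046 with RLE size factors. RLE moved the share of all calls higher in replicate 1 to 128 of 241, from 116 of 246. A change of size factors moves every log2 ratio by the same amount. With RLE, Mir142 went from 1.630 to 1.705 and Mir150 from -0.029 to 0.046. Why the methods gave unlike size factors was not tested. Leaving out a library leaves no comparison between libraries, so that was not run for the calls. Depth limits Mir146b and Mir223 most, which have 9 to 51 reads per library.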
